A study of Danio rerio with 2 samples.

Results

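The variant table deposited for an RNA-sequencing study of the zebrafish mutant supt16h lists 7447 variant sites, and 367 of them (4.93%, exact 95% interval 4.45 to 5.44) carry an effect that is predicted to disrupt a protein. A site is 1 chromosome position, and it was taken when any of its annotated effects was a stop gained, a stop lost, a start lost, a frame shift, or a change of a splice donor or a splice acceptor. These 367 sites are called high-impact sites here, and the other 7080 sites of the table are called the other sites. The study grew whole embryos at 28 °C and collected them at 32 hours post fertilisation, for 1 library of homozygous supt16h-/- mutants and 1 library of their wild-type siblings. Positions below are those of the Zv9 build. Polyadenylated RNA was read, so a variant could be found where its gene was expressed. Expression was deposited as 1 FPKM value (fragments per kilobase of transcript, scaled to the reads of the library) per locus and library. The number of embryos behind a library, the origin of the supt16h allele and the library or libraries in which the variants were called are not given in the labels or tables used here. With 1 library per group no difference between mutant and sibling has a replicate check, and no test between them was made.

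A high-impact class is a prediction read from a gene model. A stop gained turns a codon for an amino acid into a stop codon, and an inserted or deleted base shifts the reading frame of every codon after it. Messages with an early stop are often destroyed by nonsense-mediated decay, which compares the place of the stop with the exon junctions of the spliced message. A lost stop lets the ribosome read on, a lost start removes the first methionine, and the splice classes alter the bases at the edge of an intron that the spliceosome reads. The study mapped its mutation by linkage. In such a cross, variants near the mutation stay together with it on the chromosome, and a damaging change within the linked stretch marks a candidate gene.

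The codons below are those of the 5 stop gained sites of highest Quality, the 3 stop lost changes of highest Quality and all 3 start lost sites, since they show what each class does to a codon. The reference codon stands first and the variant codon after the slash, 5′ to 3′ in the sense of the gene, and the capital is the base that differs.

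CU596012.1: tTg/tAg
supt16h: Cag/Tag
MICALL1 (3 of 3): Caa/Taa
vtnb: tCa/tAa
CABZ01026065.1: tTa/tGa
ndufa13: Tag/Aag
ndufa13: tAg/tCg
fbxo42: Tga/Cga
slc35e3: aTg/aCg
slc35e3: atG/atT
slc4a1a: Atg/Gtg

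Frame shifts made up 232 of the 367 sites (63.2%, 58.1 to 68.2) and lay in 216 genes. Of these, 231 were insertions and 1 was a deletion, where the whole table held 298 insertion sites and 17 deletion sites. Splice donors followed with 70 sites in 64 genes, stop gained with 27 sites in 27 genes, splice acceptors with 23 sites in 22 genes, stop lost with 13 sites in 11 genes, and start lost with 3 sites in 2 genes. One insertion in abcf1 was annotated both as a frame shift and as a splice donor change and is counted in both classes. The 367 sites lay in 339 genes, of which 313 held 1 site, 23 held 2 sites and 3 held 3 sites. All 7447 sites of the table were listed as homozygous. At 334 of the 367 sites the effect held in every transcript that the table lists for the gene, and 159 sites had more than 1 transcript listed.

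The stop gained site in supt16h was the only high-impact site within 10 Mb of that gene. The gene encodes the large subunit of FACT, a histone chaperone that opens and rebuilds nucleosomes ahead of and behind polymerases. It lies on chromosome 7 of the Zv9 build from 1689457 to 1757060 (ENSDARG00000079949), and the change is C1738164T in coding sequence, counted on the chromosome. The glutamine codon that becomes a stop is codon 501 of 1034 in 2 transcripts (Q501*) and codon 545 of 1078 in the third (Q545*), close to the middle of the protein. The site had a Quality of 222, a score that only 685 single nucleotide sites of the table reached or passed, and a Coverage of 12 reads. The table lists 5 further sites in supt16h, all of them synonymous, each with a Quality of 222 and with Coverage between 13 and 26 reads. The stop is thus 1 of 6 homozygous sites in the gene and the one with the fewest reads.

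Expression of supt16h was 2.98 FPKM in the mutant library and 44.4 FPKM in the sibling library, a level 14.9-fold lower in the mutant. On the scale used for all genes, log2 of FPKM with 1 FPKM added, the difference was -3.51. It was the lowest of all measured loci with a high-impact site. The authors' deposited table gives q = 4.38e-05 for this locus, a value that compares these 2 libraries and not the genotypes. The 12 reads at the stop can be set beside 1115 other single nucleotide sites in genes with 2 to 4 FPKM in the mutant library. Those had a median Coverage of 5 reads with quartiles of 3 and 9. The library behind Coverage is not given, so the match to supt16h holds only if the reads came from the mutant library.

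Around supt16h the sites of the table had a higher median Quality and more reads than elsewhere. The gene lies less than 10 Mb from the start of the chromosome, so the window around it is cut short on that side. Within 10 Mb of the gene the table lists 125 sites, of which 86 were synonymous, 25 changed an amino acid and 1 was high-impact (0.80%, 0.02 to 4.38). Their median Quality was 160, their median Coverage was 7 reads, and 50 of them (40.0%) reached a Quality of 222. On the rest of chromosome 7, 14 of 293 sites were high-impact (4.78%, 2.64 to 7.89) and 16.7% reached that Quality. Over all other chromosomes and unplaced sequence the values were 352 of 7029 sites (5.01%, 4.51 to 5.54) and 8.34%. Median Quality was 80.3 on the rest of chromosome 7 and 59 on the other chromosomes and unplaced sequence. Median Coverage was 4 reads in both. Whether the difference in reads accounts for that in Quality was not tested. In bins of 5 Mb along chromosome 7, median Coverage was 8 reads at 30 to 35 Mb and at 55 to 60 Mb, above that of the window. At 10 to 15 Mb, partly inside the window, median Coverage was 2 reads and median Quality 41.8. The interval of the window overlaps that of the rest of chromosome 7. It lies below that of all other chromosomes and unplaced sequence. The window holds 1 high-impact site and linked sites are not independent, so whether the share is lower near supt16h was not tested.

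**Figure D1:**
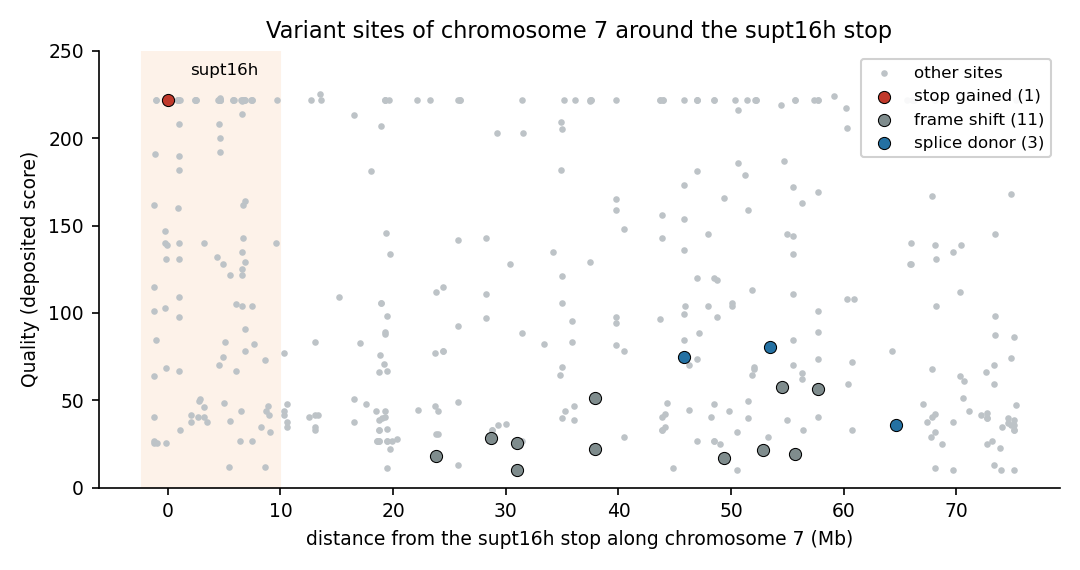
Quality of all 418 variant sites of chromosome 7 against their distance from the supt16h stop in Mb. Grey points are other sites, coloured points are the 15 high-impact sites by class, and the shaded band is the 10 Mb window, which holds the supt16h stop as its only high-impact site.

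The next high-impact site on chromosome 7 was a frame shift in haus3, a subunit of the augmin complex of the mitotic spindle, 23.8 Mb away. It had a Quality of 18 and a Coverage of 55 reads. In all, chromosome 7 held 11 frame shifts, 3 splice donor sites and the supt16h stop. The frame shifts included ccnd1, the cyclin D1 gene, with a Quality of 21.5 at 187 reads, and cdh1, the E-cadherin gene, with a Quality of 57.5 at 147 reads. Among the 14 sites of the chromosome other than the supt16h stop, the highest Quality was 80.3, at the splice donor site of zgc:77702 with 6 reads.

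The number of reads behind a site set the frame shifts apart from the other classes. Coverage, the number of reads at the site, had a median of 87.5 at the frame shifts, with a range of 9 to 249. Among the 135 high-impact single nucleotide changes the median was 3 reads with a range of 2 to 58, and 54 of them (40.0%) rested on 2 reads. Of the 135, 69 were donor and 23 acceptor changes, at the edge of an intron, in bases that a spliced message lacks. Donor sites, acceptor sites and stops gained each had a median of 3 reads. The part of the kind of site in the low Coverage was not tested. The other single nucleotide sites, 6997 in number, had a median of 4 reads and a highest value of 955, and 30.7% rested on 2 reads. The 83 other insertions and deletions of the table had a median of 38 reads, and 74.7% of them had 10 reads or more. Only 16 of the 135 high-impact single nucleotide changes had 10 reads or more, against 231 of the 232 frame shifts. These 16 were 4 stop gained sites (CU596012.1, supt16h, vtnb and MTFP1), 3 stop lost sites (the ndufa13 pair and fbxo42), 7 splice donor sites (vdac3, CC2D1A, the PTS pair, CDC37, lrrc20 and si:dkey-21o19.8) and 2 splice acceptor sites (smyd1b and pdlim7).

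Quality ran the other way. The frame shifts had a median Quality of 30.4 with a highest value of 146, the high-impact single nucleotide changes 46.5 with a highest value of 222, and the other single nucleotide sites 63.5. At Coverage of 50 reads or more, the 179 frame shifts had a median Quality of 32.5 and none reached 222. The 184 other single nucleotide sites at that Coverage had a median Quality of 222, and 106 of them reached it or more. The 83 other insertions and deletions, at any Coverage, had a median Quality of 43.6 and a highest value of 215. Their Quality at 50 reads or more was not computed. Whether low Quality at high Coverage is particular to the frame shifts among insertions and deletions was therefore not tested. Of the 8 high-impact sites with a Quality of 222, all were single nucleotide changes. They were the stops in supt16h and CU596012.1, the pair in ndufa13, the donor sites of vdac3 and CC2D1A, and the acceptor sites of smyd1b and pdlim7.

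**Figure D2:**
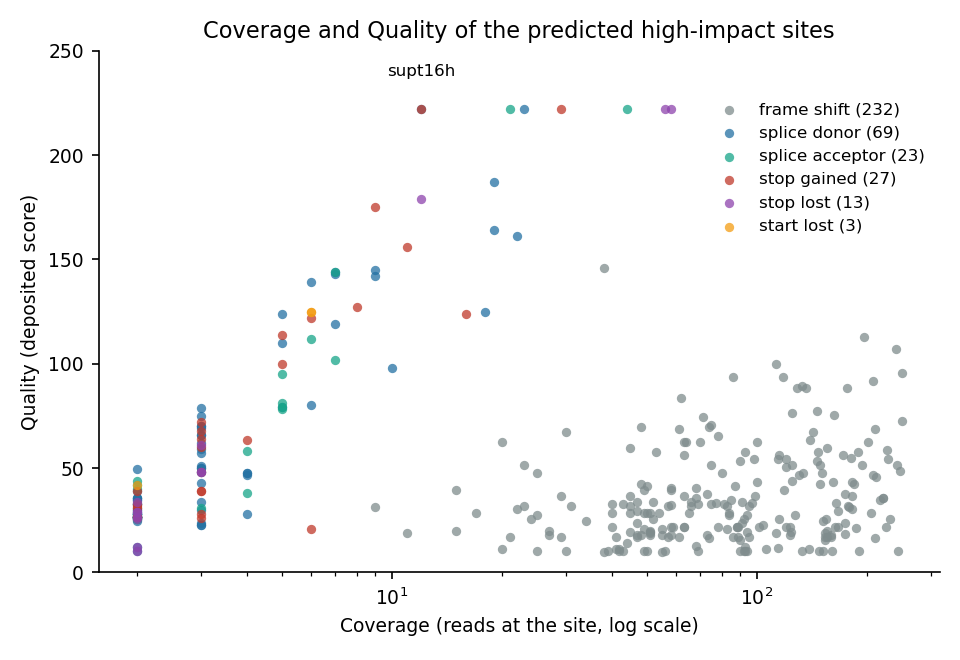
Quality against Coverage on a log scale for the 367 high-impact sites, coloured by class, with the abcf1 insertion of both classes drawn as a frame shift. The single nucleotide classes lie mostly below 10 reads and climb to a Quality of 222, while the 232 frame shifts lie at 9 to 249 reads and up to a Quality of 146.

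Insertions and deletions were rare in the table, with 315 of 7447 sites, but 232 of those 315 (73.7%, 68.4 to 78.4) were high-impact. Among the 7132 single nucleotide sites 135 were high-impact (1.89%, 1.59 to 2.24). That share was 2.46% (1.85 to 3.19) at 2 reads, 1.91% (1.37 to 2.59) at 3 or 4 reads, 1.58% (1.03 to 2.33) at 5 to 9 reads and 1.27% (0.73 to 2.06) at 10 reads or more. The intervals of neighbouring bins overlap.

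The inserted base was mostly A. Read in the sense of the gene from the codon column, A alone or with a further A was inserted at 192 of the 232 frame shifts (82.8%, 77.3 to 87.4), T alone or with a further T at 37 (15.9%, 11.5 to 21.3), and C at 2. The C insertions were in CCDC99 and DNAJC30, at 9 and 17 reads. The deletion was in eif3ja, at position 32882755 of chromosome 25, and an inserted A was listed at position 32882757. Both stood in codon 156, each with a Quality of 35.5 at 222 reads. Each is counted as a frame shift, and the effect of both together was not worked out. The genome column of the inserted base was damaged in the deposited table, with 137 of the 232 frame shifts showing a spreadsheet error and 61 showing a logical value. For 34 sites it kept an inserted T on the chromosome. Only 4 of these lay in genes whose strand the single nucleotide sites give as minus, and all 4 showed A in the codon column, the base complementary to T. No Zv9 genome was used here, so the bases around the insertions were not read.

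Frame shifts were spread over the whole length of the coding sequence. Their median position was 55.2% of the codons, with quartiles of 25.1 and 81.3%, and 21 lay in the first 10% and 37 in the last 10%. The 27 stops gained had a median of 55.8%, with quartiles of 7.48 and 90.6%, 8 in the first 10% and 7 in the last 10%. Their new stop codon was TAA at 13 sites, TAG at 8 and TGA at 6. All 13 stop lost sites affected the last codon of the model, as the class implies.

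**Figure D3:**
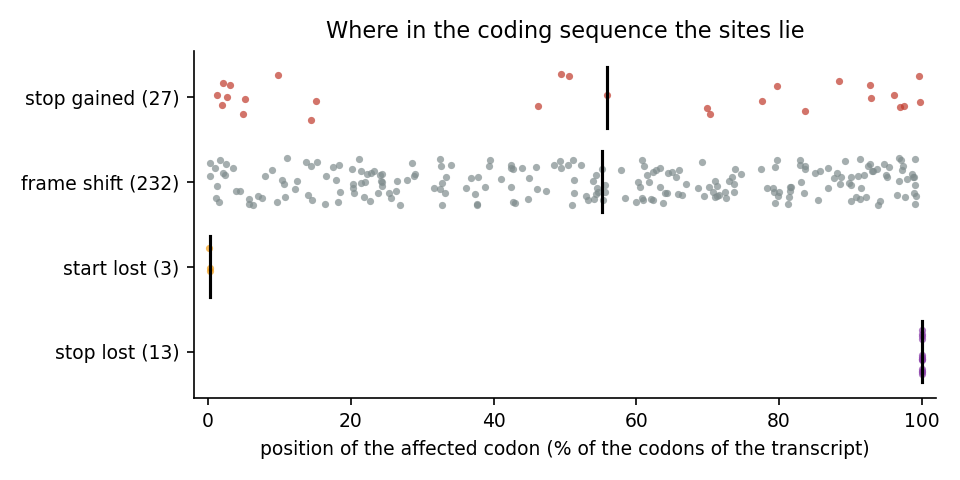
Position of the affected codon as a percentage of the codons of its transcript, 1 point per site, for the 4 classes that have a codon, with the median as a black bar and a vertical spread added for sight. The frame shifts fill the whole length around a median of 55.2%, and stops gained lie near both ends and in the middle.

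Among the stops gained, the one with most reads was in CU596012.1, a gene with a clone name on chromosome 19. The change T49939298A stops the protein at codon 8 of 307, with a Quality of 222 at 29 reads, and expression of the locus was 5.60 FPKM in the mutant library and 2.73 FPKM in the sibling library. In MICALL1 (3 of 3), a gene of the MICAL-like family on chromosome 3, G2910400A stops codon 483 of 687 at 9 reads. Its locus, which the table shares with a clone gene, was at 8.95 FPKM in the mutant and 6.41 FPKM in the sibling. In vtnb, a vitronectin gene of plasma and matrix on chromosome 21, G37900837T stops codon 467 of 469 at 11 reads, so that only the end of the protein is touched. Its level was 4.48 FPKM in the mutant library and 0.22 FPKM in the sibling library. The stop in CABZ01026065.1 likewise lies near the end, at codon 239 of 245, and that gene was below 1 FPKM in both libraries. A stop at codon 188 of 407 in paf1, a subunit of the PAF1 complex that travels with RNA polymerase II, rested on 3 reads. This gene was named after its values were seen, and it was at 17.7 FPKM in the mutant and 23.0 FPKM in the sibling.

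The stop lost class held the sites with the most reads of any high-impact single nucleotide change. In ndufa13, a subunit of respiratory complex I on chromosome 2, T59673090G and A59673091T stand side by side in the stop codon 83, with 56 and 58 reads and a Quality of 222 each. Its locus, which the table shares with GATAD2A, was at 334 FPKM in the mutant library and 233 FPKM in the sibling library. In fbxo42, an F-box gene of ubiquitin ligases on chromosome 22, T121583C alters stop codon 310 at 12 reads, with 10.8 FPKM in the mutant and 10.6 FPKM in the sibling. The INPP5A site, in a gene for an inositol phosphate phosphatase, rested on 3 reads, as did both sites of trib1, a Tribbles pseudokinase gene. INPP5A was at 7.70 FPKM in the mutant library and 0.99 FPKM in the sibling library. The level of trib1 was 3.51 FPKM in the mutant and 3.33 FPKM in the sibling.

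Both genes with a lost start are solute carriers. In slc35e3, on chromosome 4, T22053437C and G22053438T alter neighbouring bases of the first codon at 6 reads each, and expression was 13.9 FPKM in the mutant and 12.1 FPKM in the sibling. In slc4a1a, the anion exchanger of red blood cells on chromosome 3 from 19955146 to 19981409, T19977770C alters the first codon in 1 of 3 listed transcripts and rested on 2 reads. Its level was 4.56 FPKM in the mutant library and 46.9 FPKM in the sibling library, 10.3-fold lower in the mutant, and the authors' deposited table gives q = 0.0291.

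The frame shift of highest Quality, 146 at 38 reads, was an inserted A at codon 900 of 1126 in slc38a10, a gene of the amino acid transporter family, at position 36503360 of chromosome 12. That gene was at 6.66 FPKM in the mutant and 6.55 FPKM in the sibling. Next came meis1, a homeobox transcription factor, with an inserted A at position 5208300 of chromosome 13, codon 271 of 464, and a Quality of 113 at 196 reads. The insertion was a frame shift in 2 of 3 listed transcripts. The meis1 level was 30.3 FPKM in the mutant and 75.0 FPKM in the sibling. In mat2aa, which makes S-adenosylmethionine, an inserted T stands at position 6839044 of chromosome 10, codon 301 of 310, with 240 reads. Its level was 50.7 FPKM in the mutant and 83.2 FPKM in the sibling. The frame shifts of gpatch8 and si:dkey-42i9.4 had 113 and 249 reads. Expression of gpatch8 was 39.9 FPKM in the mutant and 41.4 FPKM in the sibling, and that of si:dkey-42i9.4 was 57.7 FPKM in the mutant and 109 FPKM in the sibling.

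Splice donor sites of high Quality lay in genes with very different levels. The change C2600984T on chromosome 8 in vdac3, a channel of the mitochondrial outer membrane, had 23 reads and held in 4 of 5 transcripts. That gene was at 244 FPKM in the mutant and 240 FPKM in the sibling. In CC2D1A, on chromosome 1, C55769592T had 12 reads although the gene was at 3.03 FPKM in the mutant and 2.56 FPKM in the sibling. In CDC37, a co-chaperone that brings kinases to Hsp90, T60001612A on the same chromosome had 22 reads, with 311 FPKM in the mutant and 274 FPKM in the sibling. PTS, an enzyme of tetrahydrobiopterin synthesis on chromosome 12, held the pair G325515A and C325516A with 19 reads each. The table gives PTS 2 loci over the same interval, one with 8.14 FPKM in the mutant and 30.1 FPKM in the sibling, the other with 24.1 FPKM in the mutant and 61.8 FPKM in the sibling.

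At the splice acceptors, the site with most reads was G894703A on chromosome 8 in smyd1b, a methyltransferase that muscle needs to assemble myosin, with 44 reads. Its level was 128 FPKM in the mutant and 68.7 FPKM in the sibling. The actin-associated gene pdlim7 followed with C47621857T on chromosome 14 at 21 reads, and with 199 FPKM in the mutant and 134 FPKM in the sibling. The sites in ddx21, a nucleolar helicase, and ass1, an enzyme of arginine synthesis, had 7 reads each, and that in the kinase gene MAP4K4 had 6 reads. Expression of ddx21 was 64.4 FPKM in the mutant and 74.0 FPKM in the sibling, that of ass1 was 22.7 FPKM in the mutant and 15.5 FPKM in the sibling, and that of MAP4K4 was 23.9 FPKM in the mutant and 32.7 FPKM in the sibling.

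High-impact single nucleotide changes had another mix of bases than the rest of the table. Transitions, changes within the purines or within the pyrimidines, made up 42 of 135 (31.1%, 23.4 to 39.6), against 62.2% (61.0 to 63.3) of the other single nucleotide sites. Among those other sites the share was 48.8% (46.8 to 50.9) where an amino acid changed and 73.5% (71.9 to 74.9) where the change was synonymous. Each high-impact class admits only some base changes, and the part of this in the difference was not tested. Within the high-impact changes the share was 20.4% (10.6 to 33.5) at 2 reads, 25.0% (12.7 to 41.2) at 3 or 4 reads, 56.0% (34.9 to 75.6) at 5 to 9 reads and 43.8% (19.8 to 70.1) at 10 reads or more. The other sites stayed between 59.9 and 64.5% in the same bins.

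A larger share of the high-impact single nucleotide changes also stood next to another variant. Of the 135, 28 (20.7%, 14.2 to 28.6) had a single nucleotide variant at the base directly before or after, against 4.0% (3.55 to 4.49) of the other single nucleotide sites and 6.87% (5.89 to 7.97) of those others that change an amino acid. By class it was 8 of 27 stops gained, 5 of 13 stops lost, 2 of 3 starts lost, 10 of 69 donor changes and 3 of 23 acceptor changes. At 2 reads the share was 18.5% (9.25 to 31.4) of the high-impact changes and 4.48% (3.64 to 5.44) of the others. At 10 reads or more it was 31.2% (11.0 to 58.7) of the high-impact changes and 3.06% (2.18 to 4.18) of the others, and it was 20% of the high-impact changes in both bins between. In 9 cases both neighbours were high-impact sites themselves, in gart, PTS, abcf1, trib1, ndufa13, cbx5, tmem14c, slc35e3 and myhz1.2. Of these pairs 6 were splice sites, and 3 of them, in gart, abcf1 and cbx5, were an AC-to-GT change on the chromosome. Because neighbouring sites share reads, the 2 sites of a pair are not independent. Where 2 neighbours shared a codon, as in ndufa13, each change was listed with 1 altered base. The effect of both together was not worked out.

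The 3 genes with 3 sites each differed in class and depth. In abcf1, an ATP-binding cassette protein that acts in translation, encoded on chromosome 19, an insertion at codon 188 of 878 had 229 reads, while the donor pair A31692854G and C31692855T had 7 reads each. The locus was at 99.9 FPKM in the mutant and 84.3 FPKM in the sibling. In si:dkey-286j15.1, 3 insertions of A at codons 288, 395 and 521 of 731 had 134, 154 and 174 reads, with 29.9 FPKM in the mutant and 36.9 FPKM in the sibling. In myhz1.2, a fast muscle myosin heavy chain of chromosome 5, the donor pair A33925064C and C33925065T and the acceptor change T33929376A had 2 or 3 reads, although the gene was at 1149 FPKM in the mutant and 764 FPKM in the sibling. Fast myosin heavy chain genes are near-identical copies, so reads of one can be placed on another. Whether this happened here was not tested. These splice sites also stand in intron bases, which a spliced message lacks.

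High-impact sites were found on all 25 numbered chromosomes, and 13 lay on unplaced sequence. Their share of all sites ran from 1.97% (5 of 254, 0.64 to 4.53) on chromosome 18 to 8.82% (18 of 204, 5.31 to 13.6) on chromosome 2, with 3.59% (15 of 418, 2.02 to 5.85) on chromosome 7. Unplaced sequence held 263 of the 7447 sites of the table, and its high-impact share was 4.94% (2.66 to 8.30), beside 4.93% over the whole table. It held no frame shift, and its 13 high-impact sites included 7 of the 27 stops gained. How many insertions and deletions of any kind lay there was not counted.

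**Figure D4:**
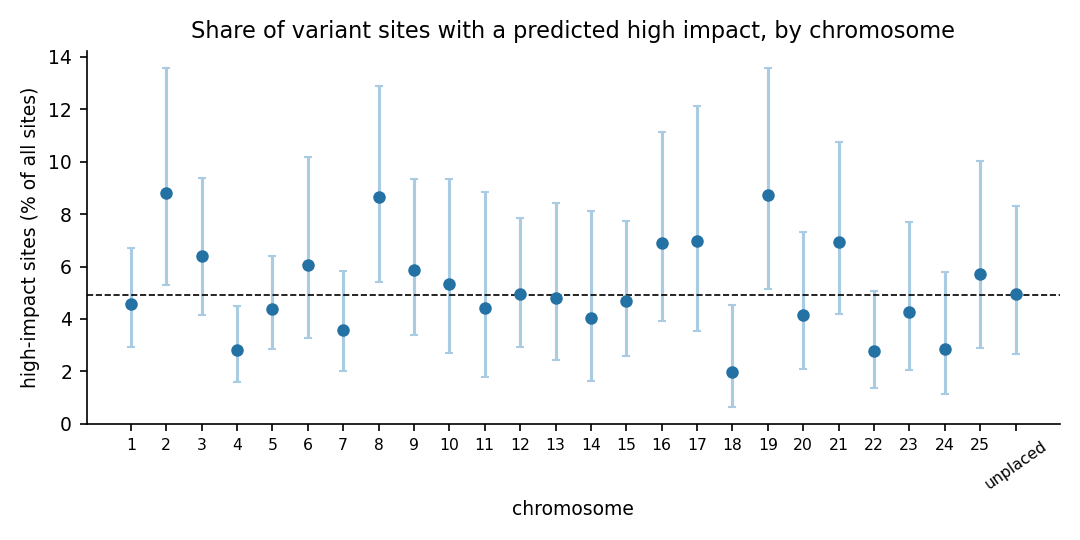
Share of variant sites that are high-impact on each chromosome and on unplaced sequence, in percent, with exact 95% intervals that cover counting error only. The dashed line is the 4.93% of the whole table, and the points run from 1.97% on chromosome 18 to 8.82% on chromosome 2.

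Expression was then compared for the genes that carry the sites. All 339 genes had a locus in the expression table, 344 loci in all because some gene names stand at more than 1 locus, and 331 loci of 325 genes averaged at least 1 FPKM over both libraries and are the measured loci. Of these, 19 loci (5.74%, 3.49 to 8.82) stood at least 2-fold higher in the mutant library, where 6.75% of all 20638 measured loci were. Lower by 2-fold or more in the mutant library were 15 loci of 14 genes (4.53%, 2.56 to 7.36), where 8.36% of all measured loci were. Over the 331 loci the median log2 difference was 0.12, with quartiles of -0.29 and 0.44, beside 0.0012 over all measured loci. Above a mean of 5 FPKM, 16 of 295 loci passed 2-fold upward and 14 downward in the mutant, where 6.31% and 9.88% of all loci of that level did. The authors' deposited table calls 3 of the 330 loci of status OK different between the libraries, 0.909%, where it calls 0.469% of all 20044 such loci. These 3 are supt16h, slc4a1a and cmlc1. Whether a site is seen depends on expression, and a median of 19.2 FPKM in the mutant and 18.7 FPKM in the sibling for the loci with a site stood beside 6.92 FPKM in the mutant and 7.33 FPKM in the sibling for all measured loci. A mixed library of whole embryos cannot tell fewer cells of a type from less RNA per cell.

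By class, 13 of 220 loci with a frame shift passed 2-fold upward in the mutant and 9 passed it downward, with a median log2 difference of 0.12. Of 19 measured loci with a stop gained, 2 were higher and 1 was lower, the one being supt16h, and the median was 0.24. Of the 62 loci with a splice donor change 2 were higher and 3 lower, with a median of 0.12, and of the 11 with a lost stop 2 were higher and 1 was lower.

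**Figure D5:**
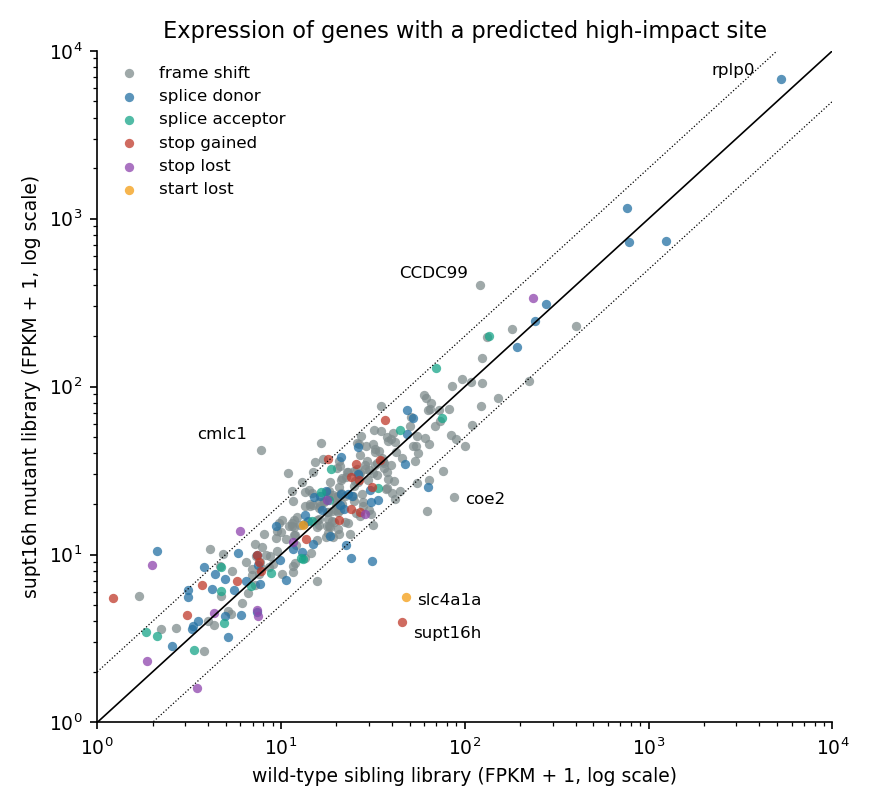
Expression of the 331 measured loci with a high-impact site in the mutant library (vertical axis) and the sibling library (horizontal axis), as FPKM with 1 added on log scales and coloured by class. The solid line marks equal levels and the dotted lines a 2-fold difference; supt16h and slc4a1a stand lowest below the line and cmlc1 highest above it.

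The loci lowest in the mutant after supt16h and slc4a1a were transcription regulators and 2 genes with donor changes. The neuronal transcription factor gene coe2, of the Ebf family, was at 21.1 FPKM in the mutant and 86.3 FPKM in the sibling, a log2 difference of -1.98. Its inserted A lies at position 70435116 of chromosome 5, at 93.8% of the coding length, with 95 reads. The Groucho-type corepressor gene tle2 was at 17.2 FPKM in the mutant and 61.5 FPKM in the sibling, a log2 difference of -1.78. Its inserted A, at codon 266 of 812, was a frame shift in 1 of 3 listed transcripts and had a Quality of 19.5. With PTS and meis1, described above, zgc:112980 was also lower, at 8.55 FPKM in the mutant and 22.9 FPKM in the sibling, and its donor change rested on 3 reads. None of coe2, tle2, PTS, zgc:112980 and meis1 was called in the authors' deposited table.

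Highest above the sibling stood cmlc1, a cardiac myosin light chain gene, at 41.1 FPKM in the mutant library and 6.75 FPKM in the sibling library. Its log2 difference was 2.44, and the authors' deposited table gives q = 0.0132. Its frame shift, an inserted A at position 67436521 of chromosome 5, codon 3 of 197, had 55 reads but a Quality of 10, the lowest value the table holds. The clone gene si:dkey-21o19.8, with a donor change at 10 reads, was at 9.56 FPKM in the mutant and 1.12 FPKM in the sibling. One of 2 loci named CCDC99 over the same interval was at 400 FPKM in the mutant and 121 FPKM in the sibling, while the other was at 12.3 FPKM in the mutant and 22.8 FPKM in the sibling, so no direction is given for that gene. The ubiquitin ligase gene mdm2, whose product limits p53, was at 45.4 FPKM in the mutant and 15.6 FPKM in the sibling, and its inserted A lies at codon 452 of 476 with 146 reads. Also higher were slc4a4a, a bicarbonate cotransporter, at 29.5 FPKM in the mutant and 9.97 FPKM in the sibling, and dhrs13b, a dehydrogenase of the short-chain type, at 9.82 FPKM in the mutant and 3.09 FPKM in the sibling. The sodium pump subunit gene atp1a1a.4 was at 34.4 FPKM in the mutant and 14.3 FPKM in the sibling. It belongs to a set of close copies, and whether reads were exchanged among them was not tested.

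Read support differed among the genes of highest mean level. In rplp0, a protein of the ribosomal stalk, a donor change rested on 3 reads at 6797 FPKM in the mutant and 5253 FPKM in the sibling. In eef2b, an elongation factor of translation, a donor change rested on 4 reads at 736 FPKM in the mutant and 1247 FPKM in the sibling. The donor change of zgc:77702 had 6 reads at 723 FPKM in the mutant and 784 FPKM in the sibling. These donor changes stand at the edge of an intron, in bases that a spliced message lacks. Whether that accounts for their few reads was not tested. In hnrpl, a splicing regulator, the site was instead an inserted A with 208 reads, at codon 21 of 537 in 1 of 3 listed transcripts. The level of hnrpl was 230 FPKM in the mutant and 402 FPKM in the sibling. Across sites, Coverage followed the FPKM of the gene with Spearman's rho of 0.72 for the mutant and 0.69 for the sibling at 227 insertion and deletion sites. For 132 high-impact single nucleotide changes rho was 0.32 for the mutant and 0.30 for the sibling, and for 6827 other single nucleotide sites it was 0.42 for the mutant and 0.38 for the sibling. These are correlations across sites, which share libraries, and are given as a description. Splice site changes are among the 132, so the groups also differ in kind of site.

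The gene groups below were described by the start of the gene symbol. Of 67 solute carrier genes in the variant table, 8 held a high-impact site, and of the 7 measured, slc4a4a was at least 2-fold higher in the mutant and slc4a1a at least 2-fold lower. Zinc finger genes held 6 of 34, with a median log2 difference of -0.27, and none of the 6 differed by 2-fold. Cytosolic ribosomal protein genes held 1 of 11 (rplp0), mitochondrial ribosomal protein genes 2 of 7 (mrpl27 and mrpl9) and collagens 2 of 20 (COL13A1 and COL22A1). None of these differed by 2-fold on the scale with 1 FPKM added. Without that addition COL22A1 was 2.16-fold higher in the mutant, at 4.61 FPKM in the mutant and 2.135 FPKM in the sibling. No high-impact site was found in 41 genes whose symbols begin like those of some immune gene families, 6 crystallin genes and 4 histone genes, against 339 of 4279 genes over the whole table. The immune group is a list of symbol starts and not of all immune genes: the complement gene c6, outside it, held a frame shift with 11 reads. The table held no hox gene. Genes with clone or identifier names made up 42 of the 339 genes with a high-impact site and 1438 of the 4279 genes of the table.

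Genes with a shared function are described next as examples, picked after their values were seen, and they are not complete lists. Of all 331 measured affected loci, 195 were above 0 and 136 below 0 in log2 difference, and of all 20638 measured loci 10338 were above 0 and 10300 below 0. Muscle genes at least 2-fold higher in the mutant included cmlc1, the titin gene ttna at 23.0 FPKM in the mutant and 10.5 FPKM in the sibling, and the actin-binding xirp2a at 29.9 FPKM in the mutant and 14.0 FPKM in the sibling. Giant muscle genes held several of the frame shifts, with an insertion at codon 30497 of 31319 in ttna, 2 in ttnb, 2 in neb and 2 in xirp2a.

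Among genes of chromatin and transcription, supt16h itself was at least 2-fold lower, as was baz1a, a subunit of chromatin remodellers, at 6.0 FPKM in the mutant and 14.7 FPKM in the sibling. The histone methyltransferase gene setdb1b, with an insertion at codon 225 of 1215, was at 22.8 FPKM in the mutant and 43.4 FPKM in the sibling. The histone demethylase gene kdm5c was at 22.2 FPKM in the mutant and 39.4 FPKM in the sibling. Of the 19 such genes picked, supt16h among them, 4 were above 0 and 15 below 0 in log2 difference, with a median of -0.44. The 19 were picked with their values known, so this split says nothing of chromatin and transcription genes as a set. The highest of the 19 was smyd2a, with a log2 difference of 0.69, and none was at least 2-fold higher in the mutant.

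Among genes of messenger RNA processing, cpsf6, a 3′ end cleavage factor, was at 47.8 FPKM in the mutant and 88.9 FPKM in the sibling. The splicing activator gene tra2a was at 85.1 FPKM in the mutant and 150 FPKM in the sibling. These were the lowest of 14 such genes picked, and none of the 14 differed by 2-fold. Of the 14, 12 were below 0 and 2 above 0 in log2 difference, with a median of -0.28. The genes were picked with their values known, so this split says nothing of such genes as a set. Of the 14 genes of ribosome biogenesis picked, 11 were above 0 and 3 below 0 in log2 difference, with a median of 0.25. The same limit holds for this split. The gene at least 2-fold lower was dkc1, the pseudouridine synthase of small nucleolar ribonucleoproteins. Its level was 25.6 FPKM in the mutant and 54.1 FPKM in the sibling. A locus named twistnb was at least 2-fold higher, at 9.08 FPKM in the mutant and 3.81 FPKM in the sibling. Another locus of that name was at 12.3 FPKM in the mutant and 7.08 FPKM in the sibling. Among the genes with a site were 3 of the nonsense-mediated decay machinery, upf2, upf3b and smg8, and their log2 differences were -0.12, 0.39 and 0.11.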

How the data were processed

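RNA of 2 libraries, 1 of supt16h mutants and 1 of wild-type siblings, was analysed from the tables the authors deposited. Per the labels' protocols, libraries were stranded, made from 1 µg of total RNA and read as paired ends of 50 nucleotides. Per the submitters' processing notes, the Zv9 build was used, with Cuffdiff, Cufflinks 2.2.1, TopHat2 2.1.1 and CASAVA 1.8, whose roles and options are not stated. The expression values are FPKM as the authors deposited them, in the columns of a Cuffdiff comparison per the file headers. The p-value and q-value and the log2 ratio of that comparison were made by the authors from 1 library against 1 library, and each is named as from the authors' deposited table. Per the file headers, SnpEff 3.1k annotated the variants. Each has a Quality score and a count of reads (Coverage), as the authors deposited them, and the caller, its filters and the library are not given in the sources used here. Sequencing depth is unknown, since FPKM hides it.

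Sites were counted once per chromosome and position. Affected genes were joined to expression loci of the same name that overlap the site. Loci with a failed status or a mean below 1 FPKM were left out, and each difference is the log2 of mutant FPKM + 1 less the log2 of sibling FPKM + 1, which understates the change of low genes. The size rule was 2-fold on that scale. Exact (Clopper-Pearson) 95% intervals cover counting error only, and sites that share reads or a chromosome are not independent. Python 3.11.15, pandas 2.3.3, numpy 2.4.6 and scipy 1.17.1 were used, and the counting was tested on simulated data, where falls that took a locus under the minimum mean were lost to that filter and all others were found.

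Named genes were supt16h, all sites within 10 Mb of it, the 5 sites of highest Quality per class (all sites for classes of 8 or fewer), the 8 highest and 8 lowest affected loci with at least 5 FPKM in 1 library, the 6 highest in mean, genes with 3 or more sites, and called members of the symbol groups. Any other gene in the text was chosen after its value was seen. The members and lists were chosen with earlier results of these data known.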

Additional observations from a re-analysis of the deposited data

How the results depend on the processing

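No paired analysis was possible because each group has 1 library, and for the same reason no replicate could be left out. The number of high-impact sites, 367, fell to 210 at a Quality of at least 30 and to 135 with single nucleotide changes alone. Their share of the table, 4.93%, became 3.37%, 1.89% and, at a Coverage of at least 10 reads, 15.9%. The median Coverage of 49 reads was 3 for single nucleotide changes and 87.5 for insertions and deletions, and the median Quality of 33.5 was 46.5 for single nucleotide changes and 30.4 for insertions and deletions, a split chosen after seeing the data. Protein-coding transcripts alone and the first listed effect alone gave 363 and 348 sites. Of the 331 affected loci, 19 higher became 8 of 331 with a pseudocount of 5 FPKM. The share of all loci past 2-fold was not computed with that pseudocount. At a Quality of at least 30, 15 of 331 lower became 9 of the 190 loci left, so the smaller count goes with fewer loci. The other alternatives, on 190 to 344 loci, gave 14 to 25 higher and 11 to 16 lower. The median log2 difference stayed between 0.08 and 0.14 in all 8. Reads limit the single nucleotide classes most, with 54 of 135 sites resting on 2 reads.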

Other observations

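Further loci past 2-fold, all named after their values were seen, are described here. MKI67, which coats mitotic chromosomes and marks dividing cells, carried inserted bases at codons 526 and 1265 of 2058 with 181 and 227 reads, and was at 43.1 FPKM in the mutant library and 98.6 FPKM in the sibling library. The topoisomerase gene top2b, with an inserted A at codon 1436 of 1619, was at 26.6 FPKM in the mutant and 62.9 FPKM in the sibling. The cyclin D1 gene ccnd1, with an inserted A at codon 97 of 292, was at 108 FPKM in the mutant and 221 FPKM in the sibling. None of the 3 was called in the authors' deposited table.

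Higher in the mutant by at least 2-fold were also pdlim1, a PDZ and LIM protein of the actin cytoskeleton, at 35.9 FPKM in the mutant and 15.9 FPKM in the sibling, and atp1a1a.3, a sodium pump subunit, at 7.43 FPKM in the mutant and 2.81 FPKM in the sibling. The frame shift of pdlim1 rested on 149 reads and the donor change of atp1a1a.3 on 2 reads. The stop lost gene tnks1bp1 was at 12.8 FPKM in the mutant and 5.01 FPKM in the sibling, and tdo2a, which breaks down tryptophan, at 0.61 FPKM in the mutant and 2.47 FPKM in the sibling. Both stop lost sites rested on 2 reads, and that of tdo2a held in 1 of 3 listed transcripts.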
